A study of Homo sapiens with 8 samples.

Results

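Cytosolic ribosomal protein genes were described in RNA-seq libraries of HuH7 cells, an established human hepatoma line, to ask whether ginsenoside Rk2 moved their mRNAs after a simulated ischemia. Members were chosen by name from the count table: symbols made of RPL or RPS and a number, with the suffix A, L, X or L1 allowed, together with RPLP0, RPLP1, RPLP2 and RPSA, and without the RPS6K kinases and RPS4Y1. The naming rule matched 84 symbols, and 82 of them had at least 10 counts in at least 4 libraries, out of 12910 genes tested. The 82 genes comprised 50 of the large (60S) subunit and 32 of the small (40S) subunit. The other 2, RPL10L with 5 to 11 counts per library and RPL3L with 0 to 3 counts, lay below this filter and were not tested.

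All 8 libraries came from wild-type cells kept for 6 h at 1% oxygen in medium without glucose and then returned to normal oxygen for 6 h. In the 4 I/R+DMSO libraries the medium of the reoxygenation period held the solvent dimethyl sulfoxide (DMSO), and in the 4 I/R+Rk2 libraries it held Rk2, a saponin of heat-processed ginseng, at 20 µM. Each library was made from 250 ng of total RNA, and the count totals ran from 16357129 to 30277046. Cells that had not been through oxygen and glucose deprivation were not analysed here, so every value below compares treated with solvent-treated cells after the same injury. The sources used here do not say that the 4 libraries of a group came from separate cultures, so the p-values measure only the spread between these libraries, which may be technical.

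The cytosolic ribosome is built from a small subunit, which decodes the mRNA, and a large subunit, which forms peptide bonds and holds the tunnel through which the new protein leaves. Its proteins are made in near-equal amounts from mRNAs that are short, abundant and stable, and most of these mRNAs begin with a run of pyrimidines, the 5′ terminal oligopyrimidine (TOP) tract, through which mTORC1 and the protein LARP1 control their translation and storage. Hepatocytes, which secrete large amounts of plasma protein, depend heavily on this machinery.

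Start-site sequences are shown for the ribosomal protein genes that passed the test, where RefSeq (GRCh38.p14) gave a start that could be printed, and for paralogs beside the partner they resemble. Each window runs 5′ to 3′ on the transcribed strand from 10 bases before to 20 bases after the start, and capitals mark a C followed by at least 6 bases that are each C or T, wholly inside the window. The ribosomal proteins RPLP0, RPS3A and RPS9 had such a tract.
RPLP0, chr12:120201092-120201121, minus strand: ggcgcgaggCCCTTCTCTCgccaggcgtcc
RPS3A, chr4:151099618-151099647, plus strand: cccacttccgCCCTTTTggctctctgacca
RPS9, chr19:54200848-54200877, plus strand: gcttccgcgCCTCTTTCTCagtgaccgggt
RPS26, chr12:56041908-56041937, plus strand: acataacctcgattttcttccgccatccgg

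The windows of RPL26 and RPS27 held a tract and those of their paralogs RPL26L1 and RPS27L did not, whereas RPL22 and RPL22L1 both held one. RefSeq listed a second RPL26L1 start, which held none either.
RPL26, chr17:8383174-8383203, minus strand: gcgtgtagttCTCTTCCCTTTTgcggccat
RPL26L1, chr5:172958719-172958748, plus strand: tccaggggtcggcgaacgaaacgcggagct
RPS27, chr1:153990752-153990781, plus strand: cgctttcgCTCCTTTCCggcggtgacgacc
RPS27L, chr15:63157458-63157487, minus strand: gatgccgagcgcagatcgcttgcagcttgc
RPL22, chr1:6199576-6199605, minus strand: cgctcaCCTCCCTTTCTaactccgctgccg
RPL22L1, chr3:170870176-170870205, minus strand: ccgtagCTTCCTCTCTgctctcgcggccga

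A start was given for 66 of the 82 ribosomal protein genes, and 55 of these (83.3%) held a tract in the window of at least 1 start. The same letters were found for 17.9% of all genes in the RefSeq table and for 31.6% of the other short genes described below, and on the opposite strand for 7.58% of the ribosomal protein genes. The presence of the letters is a description of the window and not of where transcription began in these cells. Ribosomal protein genes with a tract had a median log2 fold change of -0.20, those without one -0.21 (11 genes) and those with no start in the table -0.20 (16 genes). Thus the members with and without these letters lay at nearly the same level of change, and of the 8 genes that passed the test 3 had a tract, 3 had none and 2 had no start given.

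Nearly all ribosomal protein mRNAs had lower means with Rk2, but by little. The log2 fold change of I/R+Rk2 over I/R+DMSO was negative for 81 of the 82 genes, with a median of -0.20, which is a change of -13.0%, and quartiles of -0.24 and -0.17. It ran from -0.52 for RPL7L1 to 0.05 for RPL26, and no member that passed the test changed by more than 1.5-fold. In edgeR's quasi-likelihood test with Benjamini-Hochberg adjustment over all tested genes, 8 members fell (adjusted p below 0.05) and 0 rose. Over all tested genes 7.24% were called lower and 11.0% higher, so that the share of members called lower, 9.76%, was near the background. At an unadjusted p below 0.05 the test gave 50 members lower and 0 higher, where the background for lower was 16.3%. In 34 members every I/R+Rk2 library lay below every I/R+DMSO library, a pattern found in 12.9% of all genes. The median over all tested genes was -0.00. These are bulk libraries, in which fewer cells of a kind and less RNA per cell cannot be told apart.

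**Figure D1:**
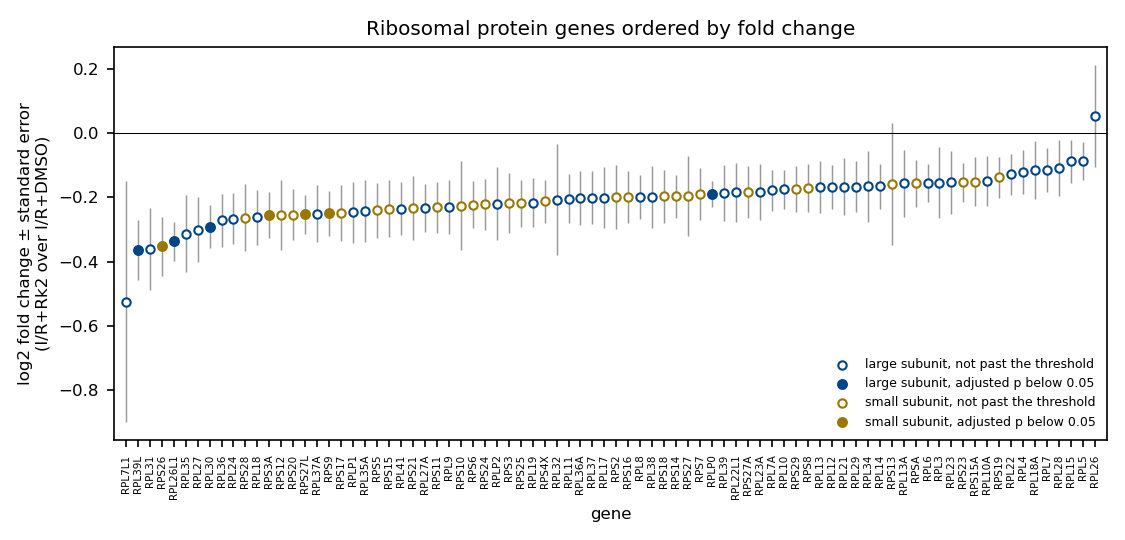
Log2 fold change of I/R+Rk2 over I/R+DMSO (vertical axis) with its standard error for each of the 82 ribosomal protein genes (horizontal axis), ordered by value; filled points passed an adjusted p of 0.05. Of the 82 points 81 lie below 0, between -0.52 and -0.09, and only RPL26 lies above it at 0.05.

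Among large-subunit genes the median was -0.19 and 4 of 50 were called lower, with 18 in which the groups did not overlap. RPL26L1, a paralog of the exit-tunnel protein RPL26, gave 53.4, 45.9, 49.98 and 49.1 CPM (counts scaled to library size with edgeR's trimmed-mean factors) in I/R+DMSO replicates 1 to 4 and 41.7, 39.5, 37.4 and 38.3 in I/R+Rk2 replicates 1 to 4. Every Rk2 library was below every DMSO library. Means were 49.6 ± 3.11 CPM with DMSO and 39.2 ± 1.89 CPM with Rk2 (SD, n = 4), which gave -0.34 as the log2 fold change (standard error 0.0618, edgeR adjusted p = 0.00920). The gene lies at chr5:172958729-172969771 on the plus strand (GRCh38, GENCODE v29). It was the member with the smallest p, and it stayed past the threshold in all 22 alternative settings, with a highest adjusted p of 0.0423 in edgeR, DESeq2 or limma.

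RPLP0, the base of the P stalk that recruits and activates the elongation GTPases (chr12:120196686-120201235, minus strand), gave 903, 825, 825 and 819 CPM in I/R+DMSO and 751, 723, 740.5 and 743 CPM in I/R+Rk2. The groups were apart, with I/R+DMSO replicate 1 well above the other libraries of its group. Its means were 843 ± 39.9 and 739 ± 11.5 CPM, a log2 fold change of -0.19 (standard error 0.0409, edgeR adjusted p = 0.0171). RPL30, a large-subunit protein at the interface with the small subunit, was at 472, 408, 393 and 396 CPM in I/R+DMSO and at 352, 359, 324 and 329.6 CPM in I/R+Rk2. These groups did not overlap either, and its log2 fold change was -0.29 (standard error 0.0672, edgeR adjusted p = 0.0217). RPL39L, a paralog of the exit-tunnel protein RPL39 known from testis (chr3:187120948-187180908, minus strand), was at 37.1, 28.6, 29.6 and 29.04 CPM in I/R+DMSO and 25.2, 25.02, 22.5 and 24.0 CPM in I/R+Rk2. Here too all 4 Rk2 libraries were lowest, and the log2 fold change was -0.36 (standard error 0.0937, edgeR adjusted p = 0.0319).

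Among small-subunit genes the median was -0.22 and 4 of 32 (12.5%) were called lower, against 7.24% of all tested genes. In 16 of the 32 the groups did not overlap, with Rk2 lower, where the background was 12.9%. RPS27L, a paralog of RPS27 that is a known p53 target (chr15:63125872-63158021, minus strand), was at 162, 138, 148 and 150.045 CPM in I/R+DMSO and 134, 126, 124 and 118 CPM in I/R+Rk2. The lowest DMSO library and the highest Rk2 library were close but apart. The log2 fold change was -0.25 with a standard error of 0.0605 and an edgeR adjusted p of 0.0246. RPS26, a protein at the mRNA exit channel (chr12:56041351-56044697, plus strand), gave 260.5, 210.3, 197 and 211 CPM in I/R+DMSO and 182, 184, 159 and 164 CPM in I/R+Rk2. Replicate 1 of I/R+DMSO stood high, and the groups did not overlap. Its means of 219.6 ± 28.0 and 172 ± 12.7 CPM gave a log2 fold change of -0.35 (standard error 0.0930, edgeR adjusted p = 0.0342).

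RPS3A, a small-subunit protein near the mRNA exit whose gene also hosts the small nucleolar RNA SNORD73A (chr4:151099573-151104652, plus strand), gave 429.9, 357, 372 and 338 CPM in I/R+DMSO and 303, 325, 314 and 312 CPM in I/R+Rk2. All Rk2 libraries were below the lowest DMSO library. Its log2 fold change was -0.26 (standard error 0.0716, edgeR adjusted p = 0.0423). RPS9, which helps to keep decoding accurate (chr19:54200742-54249003, plus strand), gave 673, 542, 572 and 559 CPM in I/R+DMSO and 516, 501, 484 and 472 CPM in I/R+Rk2. The groups were again apart, with a log2 fold change of -0.25 (standard error 0.0705, edgeR adjusted p = 0.0429). RPL24 lay just outside the threshold, at a log2 fold change of -0.27 and an edgeR adjusted p of 0.0501, with groups that did not overlap. Most called members were less firm than RPL26L1. Of the 22 alternative settings, RPLP0 stayed past the threshold in 19, RPL30 in 18, RPS27L in 15 and RPL39L in 14. RPS26 did so in 13, and RPS9 and RPS3A in 12 each. With 1 of the 8 libraries left out in turn, RPLP0 passed in 7 fits, RPL30 in 6, RPS27L in 4 and RPL39L in 3. RPS26, RPS9 and RPS3A passed in 2 each.

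One library set much of the spread behind these values. I/R+DMSO replicate 1 was the highest of the 8 libraries for 77 of the 82 ribosomal protein genes, against 23.9% of all tested genes. The median over members of log2 CPM minus the gene's mean over libraries was 0.33 in that library, and 0.01, 0.06 and 0.01 in I/R+DMSO replicates 2, 3 and 4. The same median was -0.03, -0.07, -0.13 and -0.17 in I/R+Rk2 replicates 1 to 4. All 4 Rk2 libraries were therefore below all 4 DMSO libraries, with I/R+Rk2 replicate 4 lowest for 49 members. The median coefficient of variation of a member in I/R+DMSO was 11.3% with replicate 1 and 2.92% without it, and it was 5.71% in I/R+Rk2.

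Without I/R+DMSO replicate 1 the members' median log2 fold change was -0.12, and edgeR with the same adjustment called 18 of 82 lower, including the 8 above, where the background was 6.85%. In 35 members all Rk2 libraries lay below I/R+DMSO replicates 2 to 4, with a background of 15.6%. The size of the difference was thus smaller and the number of calls larger without this library. RPL36, for example, a small large-subunit protein, moved from an edgeR adjusted p of 0.0554 and a log2 fold change of -0.27 to 0.00875 and -0.17. DESeq2 on all 8 libraries called 30 members lower, again including the 8, with a background of 10.8%.

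**Figure D2:**
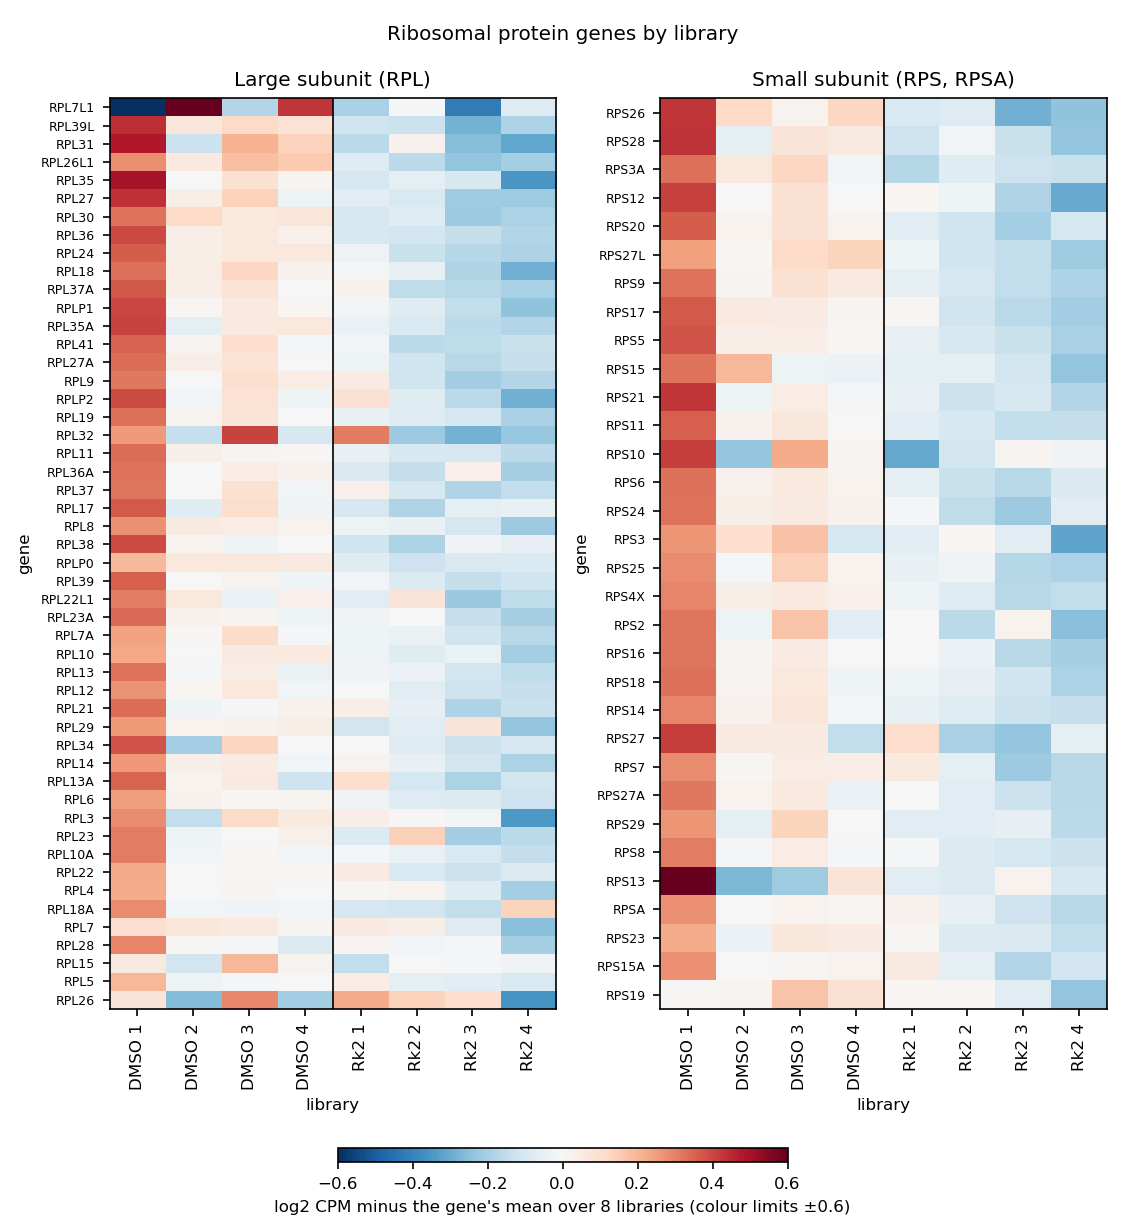
Each row is a ribosomal protein gene and each column a library; colour is log2 CPM minus the gene's mean over the 8 libraries, in log2 units, with red above and blue below the mean. The first column, I/R+DMSO replicate 1, is highest for 77 of the 82 genes, and the Rk2 columns to the right of the line are mostly blue.

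Together the 82 genes took 6.44, 5.31, 5.51 and 5.31% of all counts in I/R+DMSO replicates 1 to 4 and 5.30, 5.13, 4.93 and 4.79% in I/R+Rk2 replicates 1 to 4. The groups did not overlap, although the lowest DMSO and the highest Rk2 library differed only in the third digit, and the means were 5.64 ± 0.539% and 5.04 ± 0.225% (SD, n = 4). As a share of summed FPKM (fragments scaled to transcript length and library size), which weights each gene by its length, they took 12.3, 10.5, 10.9 and 10.6% in I/R+DMSO and 10.9, 10.6, 10.1 and 10.0% in I/R+Rk2. On that scale the groups overlapped.

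**Figure D3:**
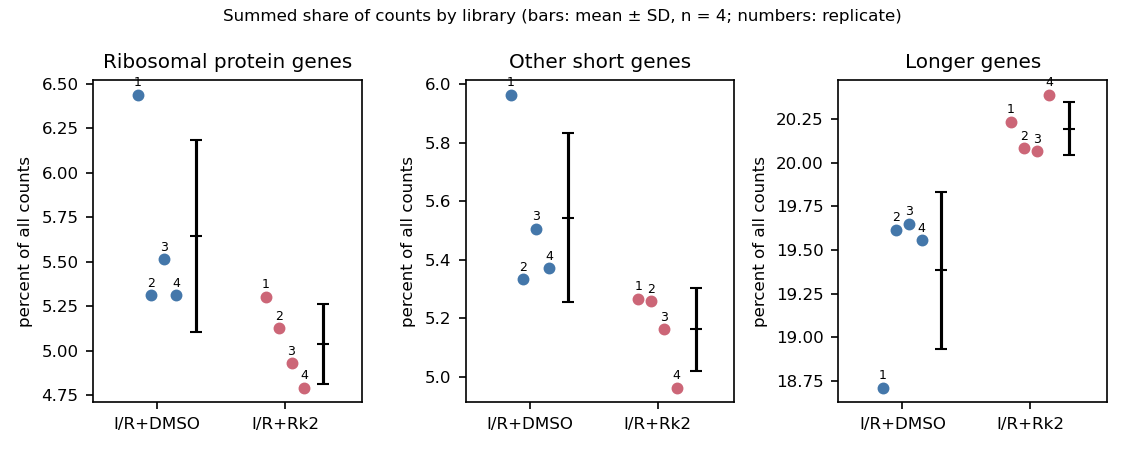
Summed share of all counts (percent, vertical axes that do not start at 0) in each library for the 82 ribosomal protein genes, for 126 other short genes of like abundance and for 473 longer genes of like abundance; points carry their replicate number and bars are the mean ± SD. The share of ribosomal protein genes runs from 6.44% to 5.31% in I/R+DMSO and from 5.30% to 4.79% in I/R+Rk2, and the share of longer genes is higher in all I/R+Rk2 libraries.

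The members were then set against other genes of their kind. Gene length was derived from each gene's counts and FPKM, and the members had a median of 908 bases against 2920 for all tested genes. Other short genes of like abundance were the 126 tested genes, none of them a ribosomal protein gene, with a derived length from 677 to 1749 bases and a mean from 236 to 1213 CPM, the 10th to 90th percentile of the members. Their median derived length was 1335 bases, above that of the members. The called members RPL26L1, RPL39L, RPS27L and RPS26 lay on average below this range of abundance and were not matched by it. The median log2 fold change of the short genes was -0.17, close to the -0.20 of the members, with 100 of 126 negative, 35 called lower and 8 higher. In 54 of the 126 the Rk2 libraries lay below all DMSO libraries, where the background was 12.9%. At an unadjusted edgeR p below 0.05, 62 of the 126 were lower and 11 higher, beside 50 and 0 of the 82 members. Longer genes in the same range of abundance, 473 in all, had a median of 0.01, with 68 called lower and 80 higher. The short genes thus had a larger share of calls than the ribosomal protein genes, at 27.8% against 9.76%, and a similar median. That difference was described and not tested.

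The short genes also shared the pattern across libraries. They took 5.96, 5.33, 5.51 and 5.37% of counts in I/R+DMSO and 5.27, 5.26, 5.16 and 4.96% in I/R+Rk2, so that I/R+DMSO replicate 1 was highest here as well. The longer genes took 18.7, 19.6, 19.7 and 19.6% in I/R+DMSO and 20.2, 20.1, 20.1 and 20.4% in I/R+Rk2. In these genes I/R+DMSO replicate 1 was the lowest library and the Rk2 libraries were all higher. Without I/R+DMSO replicate 1 the median of the short genes was -0.11 and that of the members -0.12. In that fit 38 of the 126 short genes (30.2%) were called lower, beside 18 of the 82 members (21.95%). DESeq2 on all 8 libraries called 53 of the short genes lower (42.1%), beside 30 of the members (36.6%).

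Across all tested genes the log2 fold change rose with derived length, with a Spearman correlation of 0.388 over 12898 genes that share the same 8 libraries and are not independent replicates. In 5 equal bins of genes, from the shortest to the longest, the median was -0.14, -0.06, -0.00, 0.07 and 0.17. Of the members 71 lay in the shortest bin, 10 in the next and 1, RPL7L1, in the next to longest, and those in the shortest bin had a median of -0.20. When each library was corrected for gene length with a smooth curve, the members' median was -0.04 and that of the short genes -0.05. The log2 fold change was then negative for 65 members and positive for 17, and negative for 82 of the short genes and positive for 44. With this correction edgeR called 5 members lower, RPL26L1, RPL39L, RPS26, RPS27L and RPS9, all among the 8 above, against a background of 9.53%. The other 3 lost the call, with corrected log2 fold changes of -0.05 for RPLP0 (edgeR adjusted p = 0.298), -0.10 for RPL30 (0.0822) and -0.10 for RPS3A (0.140). The correction removes any difference between groups that follows length, whatever its source, and the part of length in the members' difference was not tested beyond it.

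**Figure D4:**
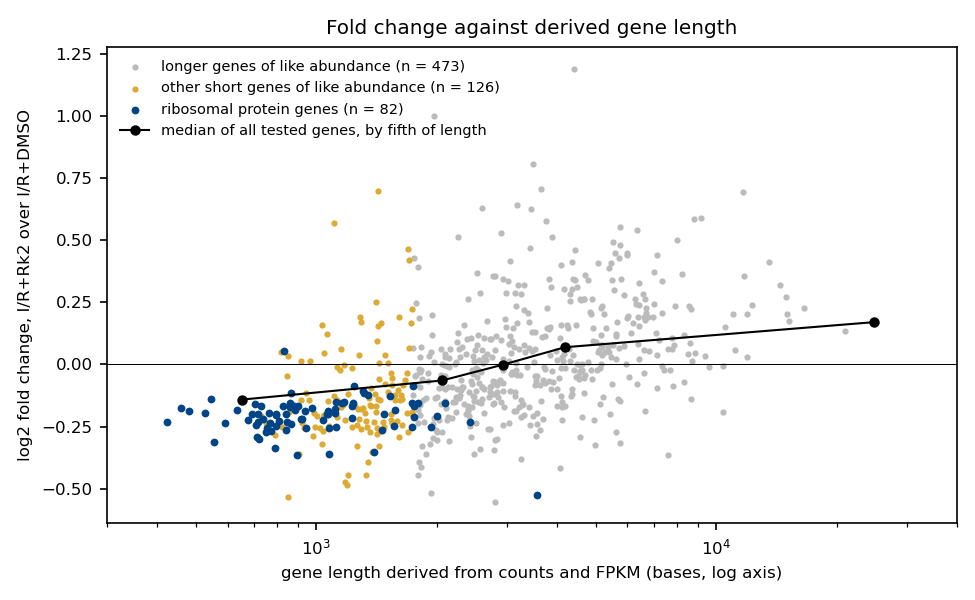
Log2 fold change of I/R+Rk2 over I/R+DMSO against gene length derived from counts and FPKM (bases, log axis) for the ribosomal protein genes, the other short genes and the longer genes of like abundance; the black line joins the medians of all tested genes in 5 equal bins of length. The line rises from -0.14 to 0.17, and ribosomal protein genes (median -0.20) lie among the other short genes (median -0.17).

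The paralogs, genes whose proteins can replace a standard ribosomal protein or resemble one, were described beside their partners. Of the 5 tested paralogs 3 fell (RPL26L1, RPL39L and RPS27L), and the median log2 fold change of the 5 was -0.34. Of the 7 partners 0 passed the test, with a median of -0.16. The partners include RPL3 and RPL10, whose paralogs RPL3L and RPL10L were not tested, so the medians do not compare matched pairs. Over all tested genes 7.24% were called lower, and sets of 5 and 7 genes are too small to compare with that share. Without the paralogs 5 of 77 members were called lower (6.49%). RPL26 itself gave 434, 343, 501 and 355 CPM in I/R+DMSO and 479, 453, 440.1 and 321 CPM in I/R+Rk2. The groups overlapped widely, at a log2 fold change of 0.05 and an edgeR adjusted p of 0.851. RPL39 was at 356, 278, 282 and 273.5 CPM in I/R+DMSO and 275, 263, 252 and 256 CPM in I/R+Rk2. One Rk2 library lay above the lowest DMSO library, and the log2 fold change was -0.19 (edgeR adjusted p = 0.165). For RPS27, a zinc-finger protein of the small subunit, the fitted log2 fold change was -0.20 (edgeR adjusted p = 0.310).

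Per length, RPL39L stood at 5.59, 5.51, 5.57 and 5.84% of the FPKM of RPL39 in I/R+DMSO and at 5.04, 5.17, 4.73 and 5.16% in I/R+Rk2, so that the ratios of the groups did not overlap. The means were 5.63 ± 0.146% and 5.02 ± 0.206%, and the ratio in I/R+DMSO replicate 1 was within the range of its group. RPL26L1 stood at 12.9, 13.7, 10.5 and 14.5% of the FPKM of RPL26 in I/R+DMSO and at 9.17, 9.03, 9.60 and 12.4% in I/R+Rk2. Most Rk2 values were lower, but the groups overlapped. These ratios were chosen after the fold changes were seen and are given with no test. The FPKM of RPS27L overlapped between the groups although its counts did not, and its derived length varied between libraries from 1462 to 2343 bases, whereas that of RPL39L ran only from 873 to 907.

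RPL22L1, which can stand in for the RNA-binding protein RPL22, had a log2 fold change of -0.18 and RPL22 one of -0.13, both with an edgeR adjusted p of 0.195. RPL7L1, a relative of RPL7 that acts in ribosome assembly, had the most negative fold change of all members and the least certain. Its CPM was 78.2, 302, 116 and 177 in I/R+DMSO and 115, 130.4, 98.5 and 125 in I/R+Rk2. The DMSO libraries spread on both sides of the Rk2 libraries, and the log2 fold change of -0.52 had a standard error of 0.374 (edgeR adjusted p = 0.363). A p that misses the threshold does not show that a gene was the same in both groups.

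**Figure D5:**
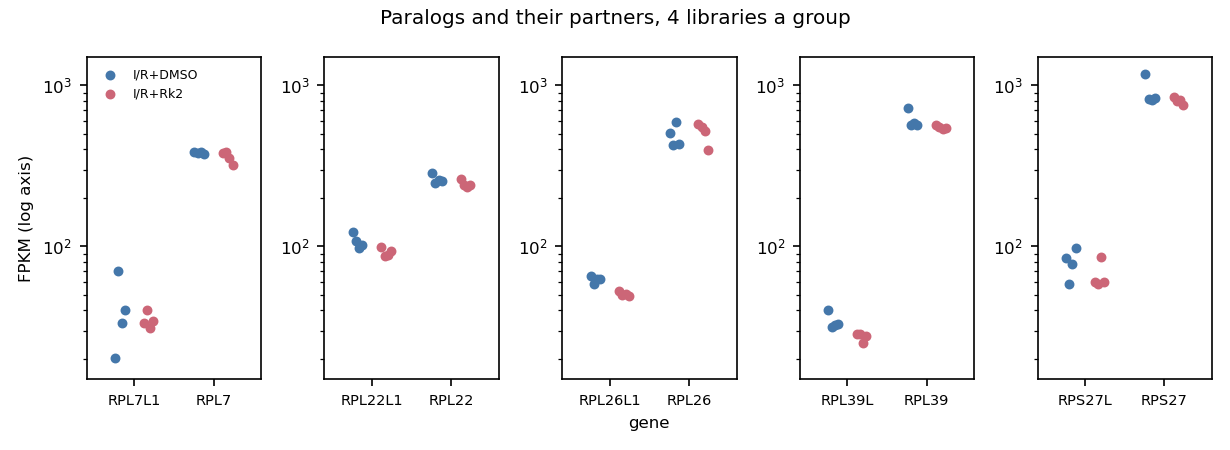
FPKM (log axis) of the 5 tested paralogs (left in each panel) and their partners (right), with 1 point per library in I/R+DMSO and I/R+Rk2. RPL26L1 and RPL39L are lower in all 4 I/R+Rk2 libraries, RPL26 overlaps between the groups, and the paralogs lie below their partners in every library.

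Smaller groups of ribosomal proteins with a shared role moved within the same range. Over all tested genes 7.24% were called lower, and these groups are too small to compare with that share. RPL5 and RPL11, which carry the 5S rRNA into the large subunit and hold back MDM2 when ribosome assembly fails, had log2 fold changes of -0.09 and -0.20, and 0 of 2 passed the test. Of the P stalk proteins 1 of 3 passed, RPLP0, with a group median of -0.22. Of 7 proteins around the exit tunnel 0 passed, with a median of -0.20, and RPL31, the member with the largest change there, had -0.36 with an edgeR adjusted p of 0.0871. Of 10 genes mutated in Diamond-Blackfan anemia, an inherited failure of red cell production, 1 passed, RPS26, with a median of -0.21. RPS2, RPS3, RPS10 and RPS20, the small-subunit proteins that are ubiquitylated when ribosomes stall or collide, had a median of -0.22 and 0 of 4 passed. RPS20 came nearest, with 551, 435, 457 and 435 CPM in I/R+DMSO and 410.003, 395, 372 and 398 CPM in I/R+Rk2. Its groups did not overlap, and its log2 fold change was -0.25 (edgeR adjusted p = 0.0596). For RPS10 the counts of the read-through gene RPS10-NUDT3 were 0 in I/R+DMSO replicate 3 and in I/R+Rk2 replicates 3 and 4 and 726 to 1197 elsewhere. With these counts added, its log2 fold change was -0.26 instead of -0.23 and its edgeR adjusted p 0.134 instead of 0.288. Added counts of read-through genes moved RPL17 from -0.20 to -0.17 (edgeR adjusted p 0.170 to 0.122) and RPL36A from -0.20 to -0.18 (0.126 to 0.149).

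Other ribosomal proteins that the naming rule did not take had negative values as well, and those given here missed the threshold. FAU, a fusion of a ubiquitin-like and a small-subunit protein, had -0.28 as its log2 fold change (edgeR adjusted p = 0.0951), RACK1, a scaffold on the small subunit, -0.18 (0.300), and RPL36AL -0.11 (0.388). The groups overlapped for each of these genes.

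Per length, the ribosomal protein mRNAs spread 61.0-fold in level, from 30.9 FPKM to 1888 FPKM averaged over the 8 libraries, with a median of 556 and quartiles of 365 and 907. In the small subunit the highest were RPS12 at 1888, RPS19 at 1559 and RPS24 at 1491 FPKM, and the lowest RPS27L at 72.7, RPS26 at 139.9 and RPS28 at 159 FPKM. In the large subunit the highest were RPL11 at 1539, RPL4 at 1346 and RPL41 at 1277 FPKM, and the lowest RPL39L at 30.9, RPL7L1 at 38.0 and RPL26L1 at 56.4 FPKM. Paralogs thus made up most of the low end. None of these highest genes passed the test, with log2 fold changes from -0.26 for RPS12 to -0.12 for RPL4. Many ribosomal protein genes have processed pseudogenes of nearly the same sequence, the count table lists none of these, and how reads that fit several copies were counted is not given in the sources used here.

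Other genes of the translation machinery were taken from gene lists. Of 16 translation factors and related genes whose mRNAs also carry TOP tracts, 0 were called lower and 1, the initiation factor EIF4B, was higher at a log2 fold change of 0.15 (edgeR adjusted p = 0.0251). Their median was -0.06 and their median derived length 1977 bases. With the length correction the median was -0.03, against -0.04 for the ribosomal protein genes, and with that correction and without I/R+DMSO replicate 1 it was -0.05 against -0.03. EIF4B lost its call with the length correction (edgeR adjusted p = 0.243), and 1 other of the 16 was then called higher and 0 lower. Elongation factors EEF1A1 and EEF2 had log2 fold changes of 0.01 and 0.05. EEF1D and EEF1B2 had -0.28 and -0.20 (edgeR adjusted p = 0.0942 and 0.0678). None of these factors passed the test, and of the 16 listed genes 8 were negative and 8 positive. Of 40 ribosome biogenesis genes 11 (27.5%) were called lower and 1 (2.50%) higher, where the background was 7.24% and 11.0%, with a median of -0.15. With the length correction 14 (35.0%) were lower and 1 (2.50%) higher, at the same median of -0.15, where the background with that correction was 9.53% and 8.04%. NOP56, a core protein of the box C/D particles that guide rRNA methylation, gave 784, 691, 712 and 696 CPM in I/R+DMSO and 564, 545, 558 and 531 CPM in I/R+Rk2. The groups were well apart, and its log2 fold change was -0.39 (edgeR adjusted p = 0.00203). POLR1E, a subunit of RNA polymerase I, fell by 0.22 on the log2 scale (edgeR adjusted p = 0.00600), and PNO1, an assembly factor of the small subunit, by 0.20 (0.00827), whereas NMD3, the export adaptor of the large subunit, rose by 0.18 (0.0181).

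Of 13 genes that control TOP mRNAs, 1 (7.69%) fell and 2 (15.4%) rose, near the background of 7.24% and 11.0%, with a median log2 fold change of 0.14 and a median derived length of 4897 bases. With the length correction the median was 0.00, with 2 lower and 2 higher (15.4% each, against a background of 9.53% and 8.04%). Without I/R+DMSO replicate 1 as well the median was -0.02. RPTOR, the substrate-binding subunit of mTORC1, was lower by a log2 fold change of -0.19 (edgeR adjusted p = 0.0373), while the S6 kinase relative RPS6KA3 was at 0.36 (0.00806) and the translation repressor EIF4EBP2 at 0.22 (0.0483). With the length correction EIF4EBP2 was at 0.00 (edgeR adjusted p = 0.961). LARP1, which binds the TOP tract, had 0.16 and missed the threshold (edgeR adjusted p = 0.105), and -0.01 with the correction. Of 13 genes of ribosome stalling and rescue 4 (30.8%) rose and 1 (7.69%) fell, against a background of 11.0% and 7.24%, with a median log2 fold change of 0.08. With the length correction 3 (23.1%) rose and 0 fell, against a background of 8.04% and 9.53%, with a median of 0.02. The ligase LTN1, which marks stalled nascent chains for breakdown, gave 39.0, 38.2, 34.7 and 39.9 CPM in I/R+DMSO and 53.0, 53.4, 53.8 and 48.8 CPM in I/R+Rk2. All Rk2 libraries were above all DMSO libraries, at a log2 fold change of 0.46 (edgeR adjusted p = 0.00250). The length correction left it at 0.24 with the call lost (edgeR adjusted p = 0.0809). The ribosome-splitting helicase ASCC3 was at 0.42 (edgeR adjusted p = 0.00932), the translation repressor GIGYF2 at 0.41 (0.0297), the nascent-chain binder NEMF at 0.38 (0.0419), and the cap-binding partner of GIGYF2, EIF4E2, at -0.22 (0.0308). With the correction ASCC3 was at 0.21, GIGYF2 at 0.31 and NEMF at 0.38, all still past the threshold, and EIF4E2 was at -0.13 and was not.

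For comparison, the 78 mitochondrial ribosomal protein genes had a median log2 fold change of -0.20 with 23 (29.5%) called lower and 0 higher, and 46 small nuclear-encoded subunits of the respiratory chain a median of -0.23 with 5 (10.9%) called lower and 0 higher, where the background for lower was 7.24%. Their median derived lengths were 1366 and 848 bases. With the length correction the medians were -0.11, with 15 (19.2%) called lower, and -0.05, with 1 (2.17%) called lower, beside -0.04 for the cytosolic ribosomal protein genes. The background for lower with that correction was 9.53%. Of the snoRNA host genes, which share the TOP tract, 1 of 14 was in the tested set, TAF1D, and it did not pass the test.

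The label of a hepatoma line held in the data, since ALB was at 2214 to 2355 CPM and AFP at 5675 to 6319 CPM in every library. All 8 hepatocyte markers were tested, of which FGB was called lower and APOB higher. Of the leukocyte markers PTPRC had no row, CD3E had 0 to 4 counts and CD68 was tested at 40.8 to 56.3 CPM. Of the endothelial markers VWF and CDH5 had no row and PECAM1 stood at 8.34 to 10.8 CPM. Of the fibroblast or stellate markers COL1A1 had 0 to 17 and ACTA2 0 to 2 counts, whereas COL1A2 was tested at 15.8 to 19.3 CPM and PDGFRB at 1.63 to 2.68 CPM. Each of the 4 tested markers of other cell types missed the threshold, and their part in the members' values was not tested.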

How the data were processed

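RNA was extracted with TRIzol and libraries were made with an MGIEasy kit. The deposited files are a table of counts per gene, not normalized, and a table of FPKM per gene. The submitters' processing notes name FastQC 0.11.5, HISAT2 2.2.1, StringTie 1.3.3 and the build hg38; how the authors counted reads, and whether by strand, is not given in the sources used here. FPKM values, as deposited, were scaled by the authors to library size and transcript length.

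From the counts, edgeR 4.0.16 (R 4.3.3; trimmed-mean factors, robust quasi-likelihood fit, condition only) was run on every gene that reached 10 counts in 4 or more libraries, with Benjamini-Hochberg adjustment. DESeq2 1.42.0 and limma 3.58.1 were alternatives. The 22 symbols turned into dates, with 0.111% of counts, were left out. Derived length is counts divided by FPKM and library total, as the median over libraries. Called genes with the smallest p in each subunit (at most 6 each way) were named. So were the 3 highest and lowest by FPKM, all paralogs with their partners, and in other lists the 3 with the smallest p each way. RPL24, RPL36, RPL31, RPS20, RPL5, LARP1, EEF1A1, EEF2, EEF1D, EEF1B2, NEMF and TAF1D were added after their values were seen. The members and gene lists were chosen with earlier results of these data known. No replicate pairing is given by the labels. Protein sequences were not used here. The voom sample weight of I/R+DMSO replicate 1, 0.353, was the lowest of the 8. One gene of the lists is not reported here.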

Additional observations from a re-analysis of the deposited data

Results flagged for a closer look

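Of 52 sets of 4 libraries tested with Dixon's criterion, 10 had a library far from the other 3 (gap over range above the 95% critical value), where chance gives about 1 in 20. In I/R+DMSO replicate 1 the highest value stood apart for RPL11 (1527 CPM), RPL22 (453 CPM), RPL39 (356 CPM), RPL39L (37.1 CPM), RPL4 (2121 CPM), RPLP0 (903 CPM) and RPS24 (1258 CPM), and for the members' median log2 deviation (0.33). These share 1 library and are not separate events. In I/R+Rk2, RPL3 was lowest in replicate 4 (966 CPM) and RPL41 highest in replicate 1 (741 CPM). The cause was not tested.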

How the results depend on the processing

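The count of ribosomal protein genes called lower, 8, depended on the setting. Beside the share of all tested genes called lower in the same setting, it was 30 with DESeq2 (36.6% against 10.8%), 16 with upper-quartile scaling (19.5% against 10.1%), 14 with voom and sample weights (17.1% against 8.64%), 4 with limma on log2(FPKM + 1) (4.88% against 2.62%) and 4 with log2(FPKM + 0.1) (4.88% against 2.60%), 5 with the gene length correction (6.10% against 9.53%), and 0 when a fold above 1.5 was also asked. Leaving out 1 library gave 2 to 18 calls: 18 without I/R+DMSO replicate 1 (21.95% against 6.85%), 4 without replicate 3 of I/R+DMSO (4.88% against 4.45%), 4 without replicate 1 of I/R+Rk2 (4.88% against 4.70%), and 2 without replicate 2, 3 or 4 of I/R+Rk2 (2.44% against 4.04%, 4.07% and 3.32%). No setting called a member higher. With the replicate number as a block 20 were called (24.4% against 5.21%), 7 of them among the 8. Deviations of same-numbered libraries correlated at 0.016, -0.010, 0.038 and 0.085, and those of differently numbered libraries at -0.148 to 0.077. With 4 libraries a group these values cannot show whether the numbers pair the libraries.

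The members' median log2 fold change of -0.20 ranged from -0.24 to -0.12 with 1 library left out. It was -0.045 with the length correction and -0.028 with that correction and without I/R+DMSO replicate 1, a setting chosen after seeing the data that called 2 members (2.44% against 8.09%). The median of the other short genes was -0.047 and -0.035 in these settings. Wider limits of length and abundance gave 3722 genes with a median derived length of 2172 bases. Their median log2 fold change was -0.081 in the main fit, against -0.17 for the narrower set, and -0.037 with the length correction. Of the 82 members, 81 were negative and 1 positive in the main fit, and 65 and 17 with the length correction. Without I/R+DMSO replicate 1 as well, 51 were negative and 31 positive. Signs are listed next only for the genes first chosen to be named, without those added later. Among these the length correction turned the sign of RPL22L1 (0.027), RPL36AL (0.055), RPL39 (0.071), RPS19 (0.087) and RPS27 (0.050). With the correction and without I/R+DMSO replicate 1, signs among these genes turned for RPL22L1 (0.047), RPL36AL (0.088), RPL39 (0.11), RPS19 (0.020), RPS27 (0.11), RPL11 (0.0038), RPL4 (0.0038), RPL41 (0.020), RPS24 (0.0024) and EIF4EBP2 (-0.0093). RPL26 ran from -0.023 to 0.17 with 1 library left out, below 0 in 3 cases (replicates 2 and 4 of I/R+DMSO and replicate 1 of I/R+Rk2). For the named genes, 794 other results kept their direction and side of the threshold, 127 lost the threshold and 7 passed it. The causes were not tested.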
